A study of Drosophila melanogaster with 4 samples.

Results

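The bithorax complex of Drosophila melanogaster is the chromosome region that holds the Hox genes Ubx (gene ID 42034), abd-A (42037) and Abd-B (47763). It was taken here as all clusters, that is regions of Psc enrichment called by the authors, that overlapped 12.48 to 12.82 Mb of arm 3R in FlyBase release 5, a window of 340 kb. By this rule 47 of the 2628 clusters of replicate 1 belonged to it, 45 of the 2432 of replicate 2, and 27 of the 8687 of the combined list that the authors made from both replicates. The 3 genes could not be placed within the window, because the gene table used is of release 6. It was used for gene names and order alone: with rising coordinates it lists Ubx, then abd-A, then Abd-B, with 13 other annotated genes between Ubx and Abd-B, of which 3 are protein-coding (CG31275, Glut3 and MSAmiP) and 10 are not, among them the long noncoding RNA bxd. The low-coordinate end of the window is therefore called the Ubx end below and the high-coordinate end the Abd-B end.

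The samples were wild-type Oregon-R embryos aged 14 to 16 h. Psc was immunoprecipitated from crosslinked chromatin and the DNA sequenced (ChIP-seq) in 2 samples, numbered 1 and 2, and per the labels 2 input samples with the same numbers served as input for the list of that number. The labels give no other genotype, treatment or time, so the data allow a comparison of positions along the chromosome and of the 2 ChIP samples, and no test between groups. Whether the 2 samples came from separate embryo collections is not stated in the labels, so their spread may be technical.

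Psc (Posterior sex combs) is one of the core proteins of Polycomb repressive complex 1 (PRC1), which is brought to Polycomb response elements in the DNA and helps to keep target genes silent through cell divisions. Hox genes are its best-known targets. Ubx encodes the homeodomain protein that sets the identity of the posterior thorax and the first part of the abdomen, abd-A acts in the anterior and middle abdomen, and Abd-B in the posterior abdomen and the genital segments. Their order along the chromosome follows the order of the body parts they act in, and long regulatory regions between them, separated by boundary elements, drive each gene segment by segment. The embryos were used whole, so cells in which a gene of the complex is silent and cells in which it is active were measured together: more cells with Psc at a site and more Psc per cell cannot be told apart.

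Psc clusters filled most of the bithorax window. In replicate 1 they covered 71.8% of its bases (244 kb), in replicate 2 66.0% (224 kb), a mean of 68.9% ± 4.1 (SD, n = 2). The combined list covered 91.7% (312 kb). Over the 5 large chromosome arms (X, 2L, 2R, 3L, 3R), called the major arms below, the same lists covered 5.40%, 4.78% and 14.1%. The bases covered in both replicates came to 203 kb, or 59.7% of the window, those in replicate 1 alone to 12.1%, those in replicate 2 alone to 6.26%, and those in neither to 22.0%. Only 27.3 kb (8.02%) lay outside the clusters of all 3 lists. The lists hold only regions past the authors' threshold, so the signal in the uncovered bases is unknown.

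**Figure D1:**
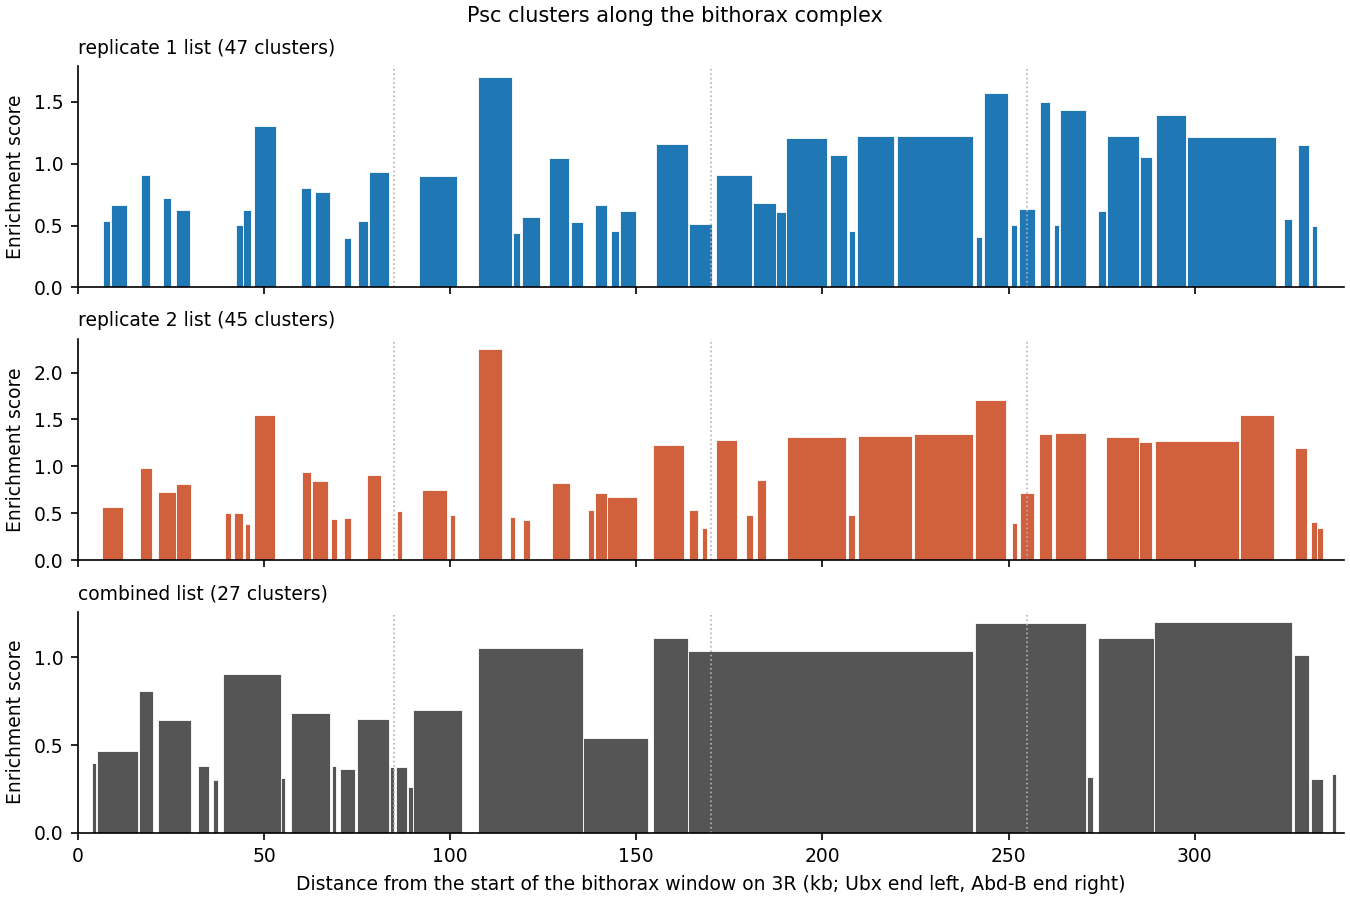
Psc clusters of the bithorax window in each list, drawn as bars from their start to their end (x axis, kb from the start of the window) with the authors' enrichment score as height (y axis, no unit stated, a scale of its own for each list). Dotted lines mark 4 equal stretches of 85 kb; wide bars with scores above 1 stand mostly right of 107 kb in all 3 lists.

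Filling and score were lower at the Ubx end than towards the Abd-B end. The window was split into 4 equal stretches of 85 kb, a split made after the lists had been seen. In the first stretch, at the Ubx end, replicate 1 covered 48.3% and replicate 2 49.5% (mean 48.9% ± 0.82, SD, n = 2). The second stretch was covered to 68.8% and 57.3% (63.0% ± 8.1), the third to 92.1% and 82.3% (87.2% ± 7.0), and the fourth, at the Abd-B end, to 77.9% and 74.8% (76.3% ± 2.2, SD, n = 2 for each). The 2 replicates of the first stretch lay below both replicates of every other stretch, and those of the third lay above both replicates of every other; values of the second and of the fourth did not overlap either. The combined list showed less contrast, with 83.7%, 92.2%, 99.5% and 91.5%.

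The authors' enrichment score, whose unit the lists do not name, followed a similar course. Weighted by length, the mean score of the clusters in the 4 stretches was 0.79, 0.93, 1.07 and 1.17 in replicate 1 and 0.82, 0.96, 1.27 and 1.27 in replicate 2; the last 2 values of replicate 2 differ only in the third decimal. The combined list had 0.64, 0.85, 1.06 and 1.10. In each list the last 2 stretches were thus above the first 2. Clusters with a score of 1 or more numbered 1, 3, 5 and 7 along the stretches in replicate 1, of 13, 11, 13 and 12 clusters. In replicate 2 they numbered 1, 2, 5 and 7, of 13, 13, 10 and 10. A cluster that crosses a border counts in both stretches. In the whole lists the top 10% of scores began at 1.06 and 1.12. Scores are not compared between lists here, since the way they were scaled is not stated, and read numbers were not analysed, so the depth and the error behind a single score are unknown.

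**Figure D2:**
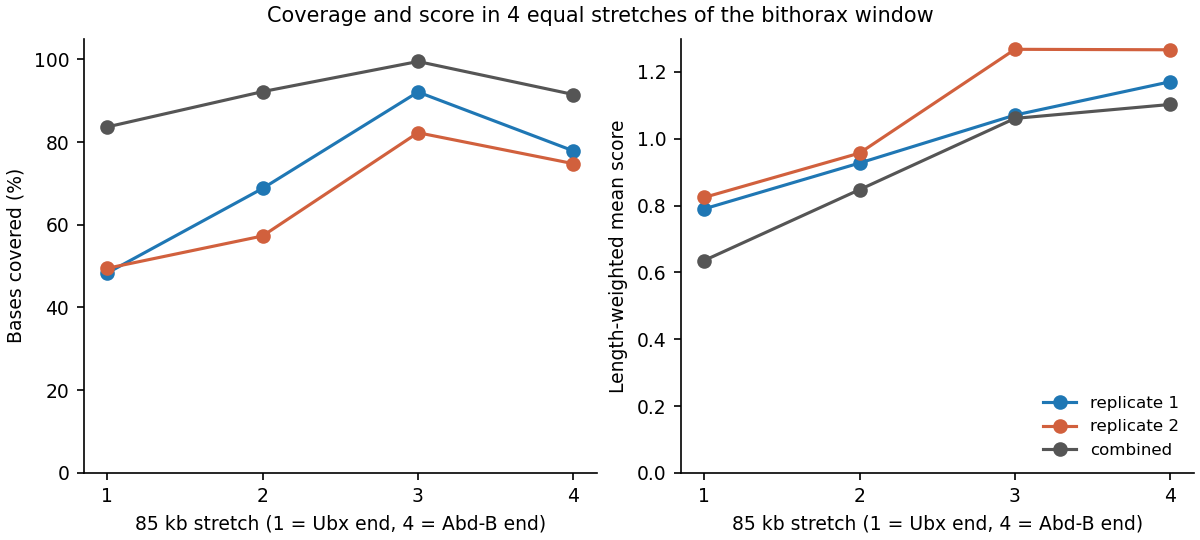
Bases covered by Psc clusters (left, %) and length-weighted mean enrichment score (right, authors' score) in the 4 stretches of 85 kb, 1 point per list. Coverage was lowest in stretch 1 and highest in stretch 3 in all 3 lists, and stretches 3 and 4 had the higher scores; levels of different lists share an axis but are not on a common scale in the right panel.

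The widest clusters of the complex lay 164 kb or more from its Ubx end. In the combined list the widest was 76496 bp long (3R:12644004-12720499, score 1.03), number 2 by width among all 8687 combined clusters. It was followed by 36890 bp (3R:12769148-12806037, score 1.20, number 6 in the list) and 29883 bp (3R:12720927-12750809, score 1.19). In replicate 1 the widest 3 were 24116 bp (3R:12777812-12801927, score 1.21), 20315 bp (3R:12700105-12720419, 1.22) and 10887 bp (3R:12670253-12681139, 1.21). In replicate 2 they were 22436 bp (3R:12769380-12791815, 1.26), 15861 bp (3R:12670554-12686414, 1.31) and 15771 bp (3R:12704622-12720392, 1.34), which were numbers 2, 4 and 5 by width in that whole list. The same 3 places thus gave the widest clusters of both replicates, though not in the same order, and each overlapped its counterpart.

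Clusters of 10 kb or more made up 5 of the 47 in replicate 1 (10.6%, exact Clopper-Pearson 95% interval 3.55 to 23.1), against 1.83% of that whole list. In replicate 2 they were 4 of 45 (8.89%, 2.48 to 21.2) against 1.03%, and in the combined list 10 of 27 (37.0%, 19.4 to 57.6) against 1.20%. The intervals cover counting error alone and treat adjoining clusters of the same list as independent. The median cluster of the complex was 3743 bp wide in replicate 1 and 3425 bp in replicate 2, where the whole lists had 1771.5 and 1821 bp. For the combined list it was 4218 bp against 1449 bp. The complex also held short clusters, down to 1450, 1328 and 1001 bp.

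A single site stood above the rest of the complex in both replicates. Its cluster began at almost the same base in each, with 3R:12587452-12596629 and a score of 1.70 in replicate 1, and 3R:12587455-12593864 and 2.25 in replicate 2; these scores exceeded 97.9% and 99.5% of the clusters of their lists. The site was preceded by 5630 bp without a cluster in either replicate. Next in both was 3R:12723281-12729804 (score 1.57) in replicate 1 and 3R:12720971-12729164 (1.71) in replicate 2.

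Below these the order differed. Replicate 1 had 3R:12738317-12740974 (1.50), 3R:12743717-12750763 (1.43) and 3R:12769478-12777766 (1.39) in places 3 to 5. Replicate 2 had 3R:12527351-12532998 (1.55), 3R:12792244-12801238 (1.54) and 3R:12742478-12750671 (1.36). Of the 5 highest clusters of either list, 3 overlapped a cluster among the 5 highest of the other. The replicate 2 cluster at 12527351 was the strongest of the Ubx end; its replicate 1 partner, 3R:12527268-12533098, scored 1.30 and was the only cluster of the first stretch with a score of 1 or more there as well. The 5 highest of the combined list had scores from 1.05 to 1.20, namely 3R:12769148-12806037 (1.20), 3R:12720927-12750809 (1.19), 3R:12754099-12769077 (1.11), 3R:12634472-12643999 (1.11) and 3R:12587359-12615667 (1.05). The site that led both replicates was number 5 there, inside a combined cluster of 28309 bp whose replicate pieces ran from 0.44 to 1.70 in replicate 1 and from 0.43 to 2.25 in replicate 2.

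Scores in the complex were high for their lists. The top 10% of its list, by score, held 14 of the 47 clusters in replicate 1 (29.8%, interval 17.3 to 44.9), 15 of 45 in replicate 2 (33.3%, 20 to 49.0) and 14 of 27 in the combined list (51.9%, 32.0 to 71.3), against 10.0% of each whole list. In the top 1%, which held 1.03%, 1.03% and 1.00% of the clusters of the 3 lists, stood 0, 1 and 0 clusters of the complex, a share near that of the lists. The median cluster of the complex scored above 71.3% of the replicate 1 list, 80.5% of the replicate 2 list and 91.1% of the combined list. Wide clusters were the stronger ones. Between score and width, Spearman rho was 0.78 across the 47 clusters of replicate 1, 0.83 across the 45 of replicate 2 and 0.78 across the 27 of the combined list. In the whole lists rho was 0.56, 0.62 and 0.04. These are descriptions across clusters that share a library and lie side by side, and no p was computed.

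Most of the longer uncovered stretches lay in the first 170 kb. There were 17 stretches of at least 1000 bp with no cluster in either replicate, 2 of them at the borders of the window. Counted by where they begin, 8 lay in the first 85 kb, 5 in the second, 0 in the third and 4 in the fourth. In replicate 1 alone there were 23, divided 10, 5, 1 and 7. In replicate 2 alone, without replicate 1, there were 28, divided 9, 10, 4 and 5, so the third stretch had the fewest in each list without being free of them. The longest, 9195 bp (3R:12510288-12519482), lay 30.3 kb from the start of the window, and 54.2% of it was covered in the combined list by clusters with scores of 0.38 and 0.30 and by the edges of stronger ones. Next came 6886 bp (3R:12533099-12539984), just past the strongest cluster of the Ubx end, and the border stretches, which were the first 6610 bp and the last 5670 bp of the window. The fifth, 5630 bp (3R:12581822-12587451), was only 24.0% covered in the combined list, and it held the longest uncovered stretch of that list inside the complex, 4277 bp (3R:12583082-12587358). It therefore separated the Ubx end from the site with the highest replicate scores in all 3 lists.

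Breaks between neighbouring clusters varied in length. Inside the complex the median distance between clusters was 868 bp in replicate 1 (46 breaks, 45 to 12311 bp), 1322.5 bp in replicate 2 (44 breaks) and 503 bp in the combined list (26 breaks). Breaks under 500 bp numbered 16, 8 and 13. Between 12644004 and 12720499 the combined list had a single cluster where replicate 1 had 10 pieces covering 94.2% and replicate 2 had 9 pieces covering 80.9%. The scores of those pieces ran from 0.46 to 1.22 in replicate 1 and from 0.35 to 1.34 in replicate 2.

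**Figure D3:**
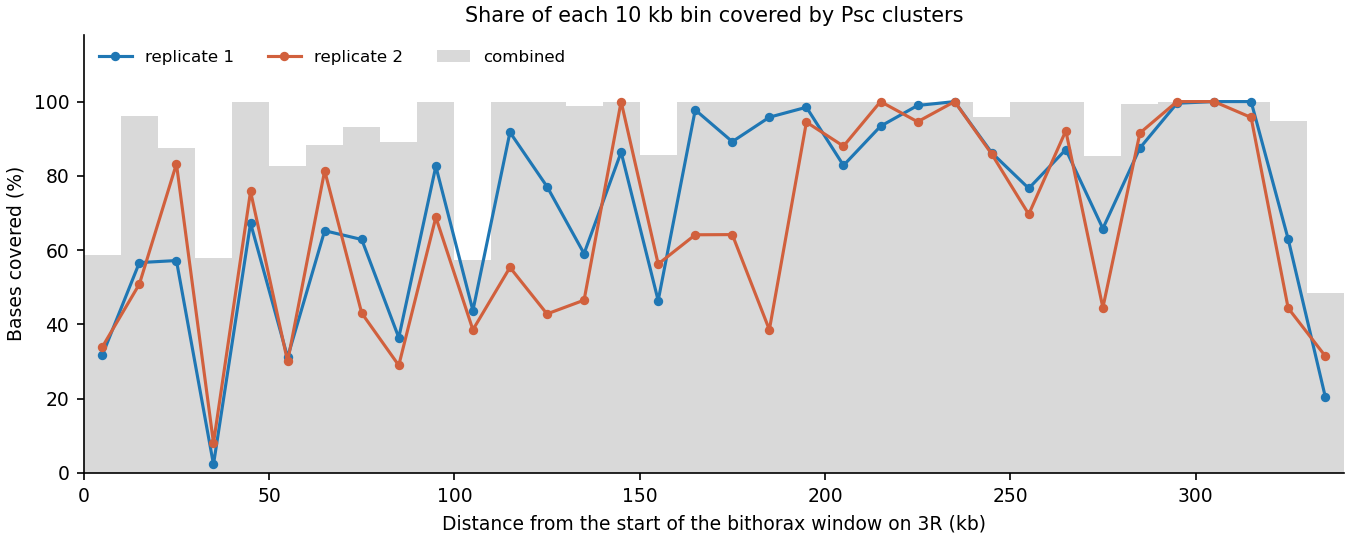
Percentage of each 10 kb bin of the bithorax window covered by clusters of replicate 1 and replicate 2 (lines with points) and of the combined list (grey bars), against distance from the start of the window. Both replicates dipped under 10% at 30 to 40 kb (2.26% and 8.05%) and reached at least 95.7% from 290 to 320 kb.

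Along the complex the 2 replicates were high and low at nearly the same places. Over the 34 bins of 10 kb, none was without a cluster in either replicate, 7 were over 90% covered in both, and 6 were under 50% covered in both. Across the 34 bins, which share their libraries and adjoin each other, rho was 0.79 and Pearson r 0.79 for the coverage of the replicates, and 0.92 and 0.93 for their length-weighted scores. The largest departure was in the bin that starts at 12660000, where replicate 1 covered 95.8% and replicate 2 38.5%. Replicate 2 exceeded replicate 1 most in the bin that starts at 12500000, with 83.2% against 57.2%. In all, 4 bins differed by more than 30 percentage points, so coverage of a single bin is less well determined than the course along the complex.

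Most clusters of the complex were present in both replicates. In replicate 1, 43 of 47 (91.5%, interval 79.6 to 97.6) overlapped a replicate 2 cluster by at least 1 bp, against 51.4% of the whole list. In replicate 2, 40 of 45 (88.9%, 76.0 to 96.3) overlapped a replicate 1 cluster, against 58.7%. When each cluster had to cover at least 50% of the other, the shares in the complex were 66.0% and 68.9%. The whole-list shares under this stricter rule were not computed, so these 2 values have no background and are not to be set against 51.4% and 58.7%. The bases covered by both replicates were 76.5% of those covered by either, against 43.3% over the major arms, and came to 83.2% of the replicate 1 bases and 90.5% of the replicate 2 bases. Overlap in position rises with the share of bases covered, 71.8% and 66.0% in the window against 5.40% and 4.78% over the major arms. These shares are therefore not set against a like background, and no closer agreement of the replicates in the complex follows from them. Clusters in the complex were also wider than in the whole lists, by the medians above. The parts of coverage and width in these shares were not tested.

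The clusters found in 1 replicate alone had scores below 1, and the highest of them stood above 61.6% of the replicate 1 list and 52.3% of the replicate 2 list. The 4 of replicate 1 had scores from 0.53 to 0.62 and widths from 2038 to 3033 bp. They were 3R:12612543-12615575, 3R:12667624-12670099, 3R:12753903-12756044 and 3R:12804074-12806111. The 5 of replicate 2 had scores from 0.34 to 0.53 and widths from 1391 to 1604 bp, and were 3R:12519483-12521027, 3R:12548078-12549681, 3R:12565617-12567078, 3R:12617158-12618548 and 3R:12812912-12814330. All 9 overlapped a combined cluster. None of the clusters with a score of 1 or more (16 in replicate 1, 15 in replicate 2) was among them. The matching share over the whole lists was not counted. Scores below 1 were the usual case there, with upper quartiles of 0.71 in replicate 1 and 0.66 in replicate 2. In the complex, too, only 16 of 47 and 15 of 45 clusters scored 1 or more. Whether the unshared clusters depart from this was not tested. A cluster found in 1 replicate alone has to fit in a break of the other list, which favours narrow clusters. Score rose with width in the complex, and the part of width was not tested.

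Pairs in which each cluster was the other's longest overlap numbered 36 in the complex, of 1294 over the whole lists. Across the 36, rho was 0.95 and r 0.94 for scores, and 0.83 and 0.85 for log2 widths. Across all 1294, rho was 0.80 and r 0.91 for scores, and no width correlation was computed. Scores spread more widely in the complex. Their quartiles were 0.54 to 1.15 in replicate 1 and 0.48 to 1.26 in replicate 2, against 0.49 to 0.71 and 0.45 to 0.66 in the whole lists. The part of this spread in rho was not tested, so no closer agreement of scores in the complex follows. Of the 36 pairs, 13 scored 1 or more in both replicates and 21 in neither, so that 94.4% lay on the same side of 1 in both lists, near the 94.9% of all 1294 pairs. Borders were less exact than in the lists at large: starts and ends of paired clusters differed by a median of 351 bp (interquartile range 102 to 1213) over 72 borders in the complex, and by 216 bp (76 to 610) over 2588 borders in the whole lists. Of the 72 borders, 26 (36.1%) lay within 200 bp of each other, against 1238 of the 2588 (47.8%). Clusters of the complex were also wider, by the medians above, and the part of width in these offsets was not tested.

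**Figure D4:**
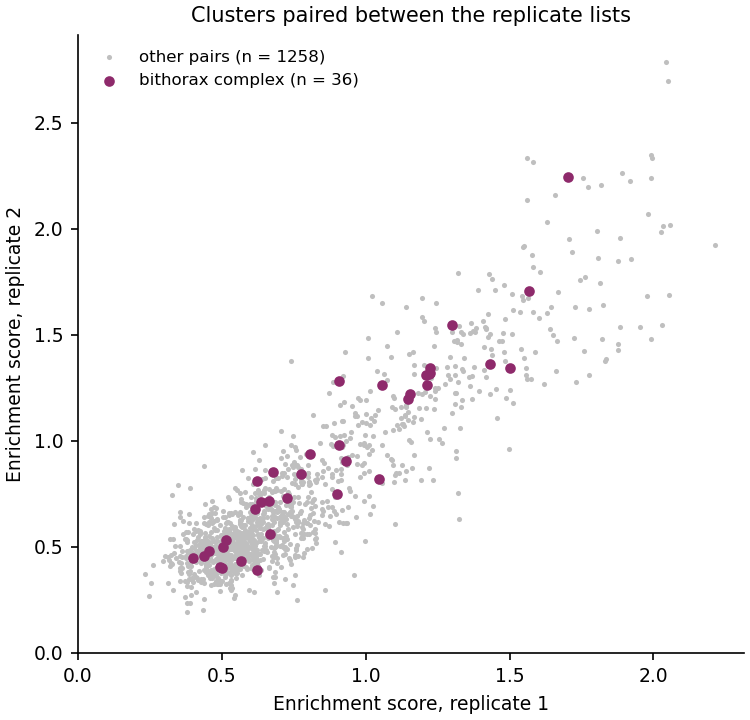
Enrichment score in replicate 1 (x axis) and replicate 2 (y axis, both the authors' score) of clusters paired between the lists, with the 36 pairs of the bithorax complex in colour and the other 1258 in grey. The pairs of the complex are spread along the cloud of the other pairs, and the pair at 1.70 and 2.25 is the site at 12587452.

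The combined list added narrow clusters and much of the stretches between replicate clusters. Of its 27 clusters in the complex, 17 (63.0%, interval 42.4 to 80.6) met both replicate lists, against 13.5% of the whole combined list, and 8 (29.6%, 13.8 to 50.2) met neither, against 63.5% of the whole combined list. Those 8 had scores from 0.26 to 0.40 and widths from 1001 to 2897 bp. Of them, 6 began in the first 170 kb, a share near that of all 27, of which 13 and 7 began in its 2 stretches of 85 kb. The remaining 2 of the 27 met replicate 2 alone, 3R:12548268-12549348 and 3R:12565585-12568517. Of the 74.7 kb covered in neither replicate, 47.4 kb was covered in the combined list. Conversely, 873 bp of the replicate clusters lay outside it. The combined list was made from the same samples, so it is no independent measurement. The shares that met the replicate lists also depend on coverage and width, whose part was not tested.

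Outside the complex the clusters thinned out at once, though not to below the coverage of the major arms. The first and last cluster lay at 12486757 and 12812911 in replicate 1 and at 12486610 and 12814330 in replicate 2, giving spans of 326 and 328 kb; the combined clusters spanned 334 kb. On the Ubx side the next replicate clusters were 27.0 kb away in both lists, with scores of 0.64 in each. On the Abd-B side they were 41.3 and 40.1 kb away, at 3R:12854259-12857048 and 3R:12854473-12856996, and strong for their lists (scores 1.32 and 1.47, above 94.2% and 95.3% of clusters). In the 100 kb before the window replicate 1 covered 9.47% and replicate 2 4.95%, and in the 100 kb after it 6.47% and 5.79%. These flanks were below every 85 kb stretch of the complex in both replicates, but above the 5.40% and 4.78% of the major arms. The combined list covered 20.5% and 19.4% of the flanks, against 14.1% of the major arms, with flank clusters no wider than 4519 bp.

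None of the other tiled windows of the same length was as filled. The 5 major arms were divided into windows of 340 kb, the bithorax window and 346 others, and it ranked 1 of 347 in each list. Among the others the highest coverage was 45.2% (replicate 1), 41.2% (replicate 2) and 69.2% (combined list), in each case in 3R:2619971-2959971, while the medians were 3.20%, 2.73% and 11.2%. This rank is a description of these lists, and no test was made. The bithorax window was set by its complex, whereas the others were tiled without regard to domains and can cut them. The window at 3R:2619971-2959971 cuts the domain described next. Joined across gaps of up to 10 kb, the combined clusters formed a longer domain at 3R:2467922-2873204 (405 kb), on the arm that also carries the Antennapedia complex, the other Hox cluster of the fly. That domain was covered to 50.4% in replicate 1 and 44.9% in replicate 2 (47.6% ± 3.9, SD, n = 2), below the 68.9% ± 4.1 of the bithorax window in both replicates. Its clusters numbered 59, 61 and 80 in the 3 lists, against 47, 45 and 27 in the shorter bithorax window, counts that are not scaled for length. They were narrower, with medians of 2323, 2253 and 2391 bp. The 2R domain with the widest combined cluster of the series (2R:8757532-9000611) was covered to 57.2% and 49.5% (53.3% ± 5.4), and its clusters had median widths of 1886, 1608 and 1750 bp. The median cluster of these 2 domains scored above 51.2% and 51.4% of the replicate 1 list and above 64.2% and 63.4% of the replicate 2 list, below the 71.3% and 80.5% of the bithorax complex. Each region has 2 values, and no test between regions was made.

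**Figure D5:**
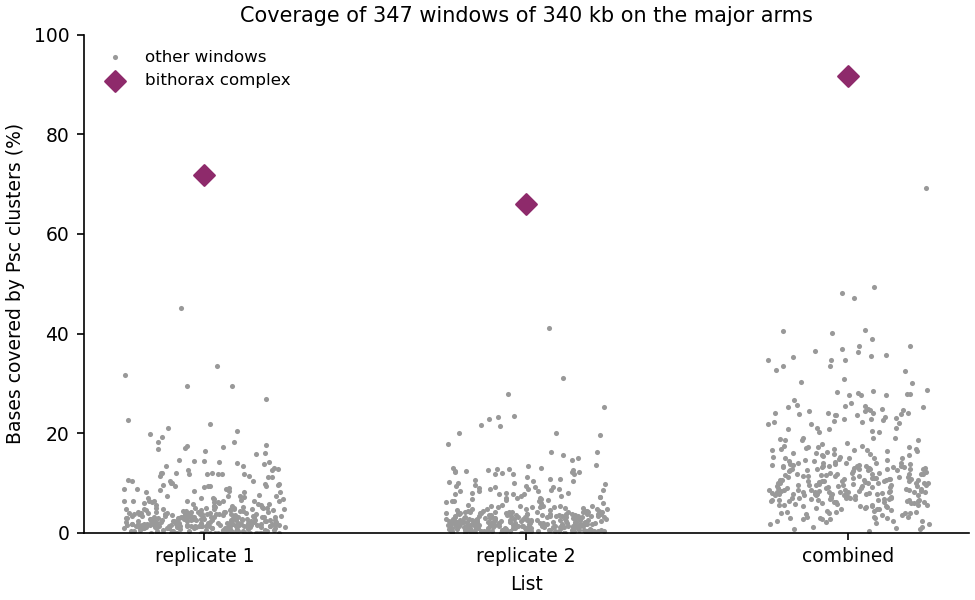
Percentage of bases covered by Psc clusters in 347 windows of 340 kb on the major arms (y axis), for each list (x axis); grey points are the 346 other windows, spread sideways for visibility, and the diamond is the bithorax window. The diamonds stand at 71.8%, 66.0% and 91.7%, above every grey point.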

How the data were processed

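ChIP-seq for Psc was done on 2 samples with 2 matching inputs, and 3 lists of enriched regions were used: 1 for each ChIP sample and 1 combined list. Reads were processed with Bowtie 0.12.7, per the submitters' processing notes; coordinates are those of FlyBase release 5, per the file headers. Caller, thresholds, scaling against input and the combination of replicates: not given in the sources used here, so these steps could not be checked. Each deposited cluster carries the authors' enrichment score, with no unit named, used only to describe and rank clusters within a list. Depth is unknown.

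Coverage, overlap (at least 1 bp), breaks and 10 kb bins were derived with numpy 2.4.6, scipy 1.17.1 and pandas 2.3.3 under Python 3.11.15; the code was tested on simulated data and against bedtools 2.31.1. A score percentile is the share of a list with a lower score. Shares carry exact Clopper-Pearson 95% intervals. These treat clusters as independent, although clusters of the complex adjoin each other and their number depends on how the caller split them. Figures were drawn with matplotlib 3.10.9. The window, the lists compared and the alternatives were chosen with earlier results of these data known. Sites named are the 3 widest and 5 highest-scoring clusters of each list in the complex and the 5 longest stretches uncovered in both replicates; others (the unshared clusters, the neighbours, the bins that differ most) were chosen after their values were seen. Gene names and order come from the RefSeq table of release 6, in which all 3 genes were found.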

Additional observations from a re-analysis of the deposited data

How the results depend on the processing

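Of 27 alternatives to 8 results, 15 were labelled as within the allowed spread and 12 as moved. This tally measures no robustness, because several labels were fixed in advance. No spread was set for the binned correlations, so their alternatives all counted as moved. With 2 replicates, leaving out either always keeps coverage and score percentile within their SD. For the bases in both replicates, each base counted as an independent trial, so very small changes counted as moved. The bithorax window ranked 1 in coverage with tiles moved by 170 kb and with only the clusters at or above the median score of their list. With that choice, which keeps fewer clusters by construction, mean replicate coverage moved from 68.9% to 60.1%, and the bases in both replicates over those in either from 76.5% to 76.2%. Joining clusters within 1000 bp moved the latter to 77.7%. At 50% reciprocal overlap, a stricter demand by construction, 66.0% of replicate 1 and 68.9% of replicate 2 clusters of the complex were shared. No whole-list share was computed for that rule. Weighted by length, the median score percentile, 75.9 as the mean of the replicates, was 92.0. The rank correlation of binned scores, 0.92, was 0.85 in 5 kb bins, 0.89 in 20 kb bins and 0.88 with the highest score in a bin. The 17 uncovered stretches became 27 at a minimum of 500 bp and 11 at 2000 bp, and 23 to 28 with either replicate left out; without replicate 1 there were 28. No paired analysis was possible because no input list was used here, so the numbers pair no values. Unknown read numbers limit every score.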
